A study of Mus musculus with 9 samples.

Results

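The 8 genes described here encode the Cyfip proteins and their partners in the WAVE complex: Cyfip1, Cyfip2, Nckap1, Wasf1, Wasf2, Wasf3, Abi1 and Abi2. They were chosen by symbol from the authors' gene table, where they fill 10 of 30999 lines and 8 of 29237 symbols, and 7 of the 8 carry at least 1 FMRP tag there. RNA bound to FMRP, the RNA-binding protein missing in fragile X syndrome, and RNA bound to the neuronal Hu proteins was measured by HITS-CLIP, in which ultraviolet light crosslinks protein to RNA in the lysate and the immunoprecipitated RNA fragments are sequenced as tags. The material was polyribosomes from pooled littermate FVB mouse brains without white matter tracts (cortex and cerebellum), so cell types are mixed and a change in tags cannot be told apart from a change in the mRNA present. FMRP was precipitated with mixed monoclonal antibodies 7G1-1 and 2F5 in 3 libraries (P14, P15, P25) and with polyclonal antibody ab17722 in 4 (P14 and P25 on 454, P11 and P13 on Illumina), and Hu with a human anti-Hu antiserum in 2 libraries from the same P11 and P13 lysates. The 5 libraries on 454 used Protocol 1 (1% SDS) and the 4 on Illumina Protocol 2 (2% SDS). Fmr1-null littermates were handled in parallel in most experiments, per the series text, and are not analysed here.

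In the cell, CYFIP1 or CYFIP2 joins NCKAP1, a WAVE protein (encoded by Wasf1, Wasf2 or Wasf3), an ABI protein and the small subunit BRK1. This complex holds WAVE inactive until Rac, a small GTPase, binds the CYFIP subunit, after which WAVE activates the Arp2/3 complex and branched actin grows, as in dendritic spines and growth cones. CYFIP1 has a further role as an FMRP partner that binds the cap-binding protein eIF4E and represses translation.

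The 7 FMRP libraries held 4485 to 8360 table tags on 454 and 25496 and 43562 on Illumina. In the transcript lists, which also cover Hu, the Illumina libraries held 26794 and 44076 tags for FMRP and 25873 and 49847 for Hu. A gene with no tag could still hold up to 3 counts, which is 682 CPM (tags scaled to a library total of 1000000) in the smallest library. Neuronal markers were present in every library, with a summed level over 7 genes of 1627 to 5867 CPM for FMRP and 6493 to 11395 for Hu. The 4 microglial markers summed to 0 to 227 CPM for FMRP and 0 to 38.65 for Hu. All of it came from Csf1r, since Cx3cr1, Aif1 and C1qa had no tag for either protein. The 4 markers of organs outside the brain reached at most 22.7 CPM for FMRP and 20.1 for Hu. Oligodendrocyte markers summed to 149 to 2291 CPM for FMRP and 4947 to 11555 for Hu, astrocyte markers to 533 to 1945 and 77.3 to 241, endothelial markers to 0 to 459 and 0 to 20.1, and cerebellar markers to 612 to 4855 and 271 to 1063; the part of these differences in the results below was not tested.

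Cyfip2 carried most of the FMRP tags on this complex, and its paralog Cyfip1 few. Levels below are FMRP tags per kb of transcript, scaled to 1000000 table tags in each library. Genes of different length can thus be set side by side as far as the listed lengths hold. The listed length of Nckap1 is coding sequence only. That of Cyfip1 comes with no RefSeq transcript, and what it covers was not tested. The levels are not corrected for how much of each mRNA was present. Cyfip2 (chr11:46007360-46125852, minus strand, mm9; transcript of 6785 nt) had 690, 578 and 899 in the monoclonal P14, P15 and P25 libraries, 487 and 929 in the polyclonal P14 and P25 libraries on 454, and 254 and 508 in the polyclonal P11 and P13 libraries on Illumina. These values rest on 21, 29, 51, 23, 37, 44 and 150 tags in the same order. No library was without Cyfip2 tags, the P25 libraries were the highest and the P11 library the lowest. The mean was 621 ± 240 (SD, n = 7), the 4th highest of 8812 table lines that had a length and a tag, whose median was 10.2. The exon array intensity deposited for Cyfip2 lay at percentile 99.97 of the table's lines, and the part of mRNA level in this rank was not tested.

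Cyfip1 (transcript of 8411 nt, no coordinates in the table) had 2, 0 and 0 tags in the monoclonal P14, P15 and P25 libraries, 0 and 1 in the polyclonal P14 and P25 libraries on 454, and 8 and 8 in the P11 and P13 libraries. Its level was 18.9 ± 20.8 per kb (SD, n = 7), and in the 5 libraries on 454 it lay under the limit that 3 counts allow (42.7 to 79.5 per kb). Cyfip2 exceeded Cyfip1 by 602 ± 245 tags per kb (SD, n = 7) and was higher in 7 of 7 libraries, a ratio of means of 32.8 (exact two-sided sign-flip permutation test over libraries, p = 0.0156, the smallest that 7 libraries allow). The difference depended on how mRNA level was treated. The deposited exon array intensity was 6826 for Cyfip2 and 450 for Cyfip1, and after division by it (per 1000 intensity units) the levels were 90.9 ± 35.1 and 42.1 ± 46.2 (SD, n = 7), with Cyfip2 higher in 5 of 7 libraries (exact sign-flip permutation test, p = 0.0938). The deposited expression in neurons was 11.56 for Cyfip2 and 11.03 for Cyfip1 on the log2 scale; divided by its linear value, an alternative chosen after seeing the data, Cyfip2 stayed higher in 7 of 7 libraries (ratio of means 22.7, exact permutation p = 0.0156).

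Nckap1, which pairs with CYFIP to form the core of the complex, was next (chr2:80341452-80421122, mm9; 3405 nt). Its level was 0, 119 and 141 per kb in the monoclonal P14, P15 and P25 libraries, 127 and 50.0 in the polyclonal P14 and P25 libraries on 454, and 403 and 425 in the P11 and P13 libraries. The Illumina libraries stood above every 454 library, where no count exceeded 4 tags. The mean was 181 ± 167 (SD, n = 7). The listed length is coding sequence only, while those of the other members include untranslated sequence. Its level and its place are therefore not on a like scale with theirs. By coding counts per coding kb, Nckap1 minus Wasf1 was -4.39. Tags on Nckap1 were listed on 3 lines of the table; the level uses the line with a RefSeq transcript (109 tags), and the others lie beside it and hold 10 and 1 tags.

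Among the WAVE genes, Wasf1 (chr10:40603379-40658373, plus strand, mm9), the member best known from neurons, had 30 tags in all and at least 1 tag in 7 of 7 libraries, at 133 ± 58.2 per kb (SD, n = 7). Its libraries ranged from 88.9 in the monoclonal P14 library to 229 in the polyclonal P14 library. Wasf3 (chr5:147196582-147282701, plus strand) had 22 tags in 6 libraries, at 65.6 ± 39.7. Wasf2 (chr4:132686548-132754245, plus strand), the broadly expressed WAVE gene, had no tag in the table in any of the 7 libraries, and 3 counts would allow 13.2 per kb in the P13 library and up to 128.3 in the monoclonal P14 library. The transcript lists held 1 Wasf2 tag in all, in the monoclonal P15 library.

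The ABI genes, whose proteins link WAVE to the rest of the complex and to the Abl kinases, had low levels. Abi1 (chr2:22795509-22895760, minus strand) had 19 tags in 4 libraries, at 33.0 ± 35.1 per kb. Abi2 (chr1:60466642-60538002) had 30 tags in 4 libraries, at 26.7 ± 32.9 (SD, n = 7 for both), and 23 of its tags came from the P13 library alone. The tags of Abi1, Abi2, Wasf3 and Cyfip1 on 454 numbered 0 to 2 in each library, so an order among them cannot be read from those libraries.

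**Figure D1:**
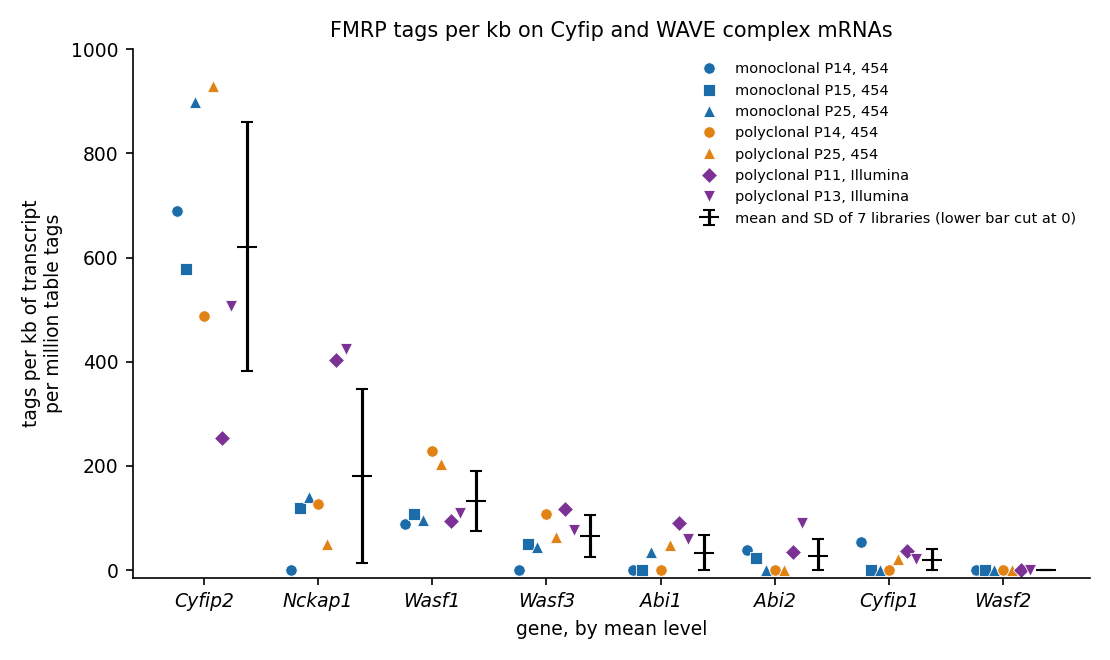
FMRP tags per kb of transcript per 1000000 table tags (y axis) for each of the 8 genes, ordered by mean (x axis); each point is 1 library, with color and shape giving antibody, age and platform, and the black bar gives the mean and SD of 7 libraries. Cyfip2 lies between 254 and 929 in every library, Nckap1 reaches 403 and 425 only in the Illumina libraries, and Wasf2 is at 0 throughout.

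By mean level per kb, with Nckap1 on its coding length alone, the order was Cyfip2, Nckap1, Wasf1, Wasf3, Abi1, Abi2, Cyfip1, Wasf2. No pair of neighbours in this order passed the test after adjustment, which a single pair could not have done, since the smallest p that 7 libraries allow (0.0156) becomes 0.109 over 7 pairs. The 7 neighbouring pairs were compared by exact sign-flip permutation tests over the 7 libraries with Benjamini-Hochberg adjustment. Cyfip2 exceeded Nckap1 by 440 ± 374 per kb and in 6 of 7 libraries (exact p = 0.0469, adjusted p = 0.109). Wasf1 exceeded Wasf3 by 67.0 ± 55.5 in 6 of 7 libraries and Wasf3 exceeded Abi1 by 32.6 ± 36.4 in 6 of 7 (exact p = 0.0313 and adjusted p = 0.109 for both). Nckap1 and Wasf1 differed by 48.0 ± 193, Abi1 and Abi2 by 6.33 ± 39.6, Abi2 and Cyfip1 by 7.79 ± 30.4, and Cyfip1 and Wasf2 by 18.9 ± 20.8 (SD, n = 7 each; exact permutation tests, adjusted p of 0.688, 0.688, 0.688 and 0.219).

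The deposited measures of mRNA level did not order the genes alike. The exon array gave Cyfip2 6826, Wasf3 3250, Abi1 1030, Nckap1 987, Cyfip1 450, Abi2 364, Wasf1 75.6 and Wasf2 70.6 intensity units. The neuron column, on the log2 scale, was highest for Nckap1 at 12.77 and lowest for Wasf3 at 6.54, with Abi2 at 11.72, Wasf1 at 11.62 and Cyfip2 at 11.56. Per 1000 array units Wasf1 came first, at 1754 ± 769 FMRP tags per kb, followed by Nckap1 at 183 ± 169 and Cyfip2 at 90.9 ± 35.1 (SD, n = 7). Per 1000 linear units of the neuron column Wasf3 came first at 705, followed by Cyfip2 at 206 and Wasf1 at 42.1. The Wasf3 figure comes from division by a low neuron value, 93.05 linear units, while its array intensity lay at percentile 99.64. Whether that neuron value measures its mRNA was not tested. Cyfip2 and Wasf1 were among the first 3 genes by plain level per kb and on both scaled ones. The array intensity of Wasf1 lay at percentile 38.2 of the table's lines, beside that of the untagged Wasf2 at 36.2, and whether so low an intensity measures its mRNA was not tested. In the authors' deposited table, where the rank follows a chi-square score and the FDR exceeds 1 in many lines, Cyfip2 stood at rank 9 (FDR 4.07e-14), Nckap1 at 429 (FDR 0.00019), Wasf1 at 533 (FDR 0.000828), Wasf3 at 1094 (FDR 0.0487), Cyfip1 at 1735 (FDR 0.491), Abi2 at 1768 (FDR 0.529), Abi1 at 1980 (FDR 0.822) and Wasf2 at 18995.

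**Figure D2:**
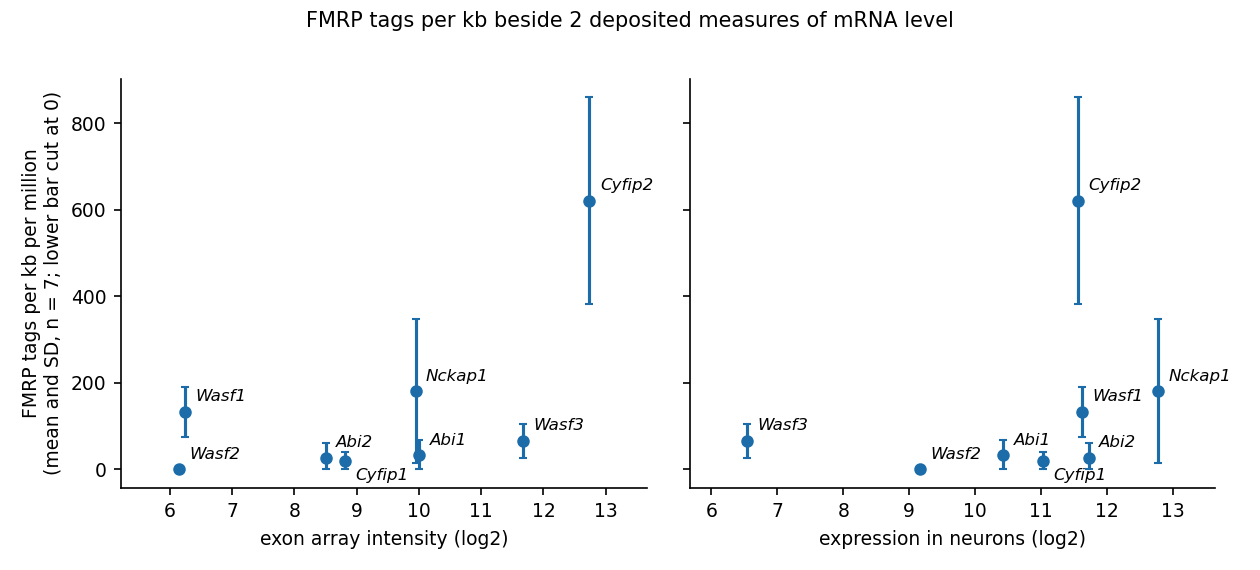
Mean FMRP tags per kb per 1000000 (y axis, with SD over 7 libraries) against the exon array intensity (left, log2) and the expression in neurons (right, log2) deposited for each gene. Cyfip2 has the highest array intensity of the 8 genes and the highest level per kb; Wasf1 has a low array intensity and a neuron value of 11.62, close to that of Cyfip2 at 11.56.

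The Hu libraries were made from the same P11 and P13 lysates, so they allow FMRP tags on these mRNAs to be set against those of another polysome-associated protein. Cyfip2 and Nckap1 were higher in FMRP and Abi2 was lower. With 2 libraries of each protein the values of a gene can separate by chance, and the share of all genes that separate is not given here. Of 3 members with enough tags to be tested, 2 were higher in FMRP, where 33.6% of the 1015 genes tested were higher, and 1 was lower, where 27.3% were; these shares are by the edgeR quasi-likelihood test, Benjamini-Hochberg adjusted at 0.05 (341 and 277 genes). The scaling sets the zero of the fold changes: the median log2 over all tested genes was -0.16 with the TMM factors used here, 0.21 under the size factors of DESeq2 and -0.43 under plain library totals, and the genes higher in FMRP made up 55.2%, 61.6% and 46.9% of the calls. They made up 72.3% of the calls of DESeq2 and 70.8% without a filter on low counts.

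Cyfip2 had 56 and 189 transcript tags in the P11 and P13 FMRP libraries, against 6 and 46 in the P11 and P13 Hu libraries, which is 2090 and 4288 CPM for FMRP and 232 and 923 CPM for Hu. Both FMRP values lay above both Hu values. The log2 FMRP over Hu was 2.72 (SE 0.78, adjusted p = 0.0151, edgeR quasi-likelihood test, Benjamini-Hochberg adjusted, 2 libraries of each protein). The call was lost without the P11 Hu library (log2 1.91, adjusted p = 0.121 by the same edgeR test) and when the 454 FMRP libraries joined the fit beside a platform term (log2 0.34, adjusted p = 0.628 by edgeR), and over all alternatives the adjusted p ran from 3.71e-06 to 0.628.

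Nckap1 had 42 and 72 transcript tags in the P11 and P13 FMRP libraries, against 2 and 7 in the P11 and P13 Hu libraries, or 1568 and 1634 CPM for FMRP and 77.3 and 140 CPM for Hu. The FMRP libraries were close to each other. The log2 FMRP over Hu was 4.03 (SE 0.71, adjusted p = 0.00223, edgeR quasi-likelihood test, Benjamini-Hochberg adjusted), and it passed in every alternative run, from a log2 of 1.80 when the 454 FMRP libraries joined the fit beside a platform term to 5.01 without the P13 Hu library (adjusted p from 7.72e-07 to 0.0307). The listed transcript of Nckap1 spans its coding length only (3405 of 3405 nt), so tags on an untranslated part are missing from this fold. In the 5000 nt beyond the lower mm9 bound of the gene (chr2:80336452-80341451, a region chosen after seeing the data), genomic tags numbered 1 and 7 in the FMRP libraries and 3 and 10 in the Hu libraries. Within the gene bounds they numbered 35 and 61 in the FMRP libraries and 2 and 8 in the Hu libraries. The ratio of library-scaled FMRP to Hu tags was 13.6 within the bounds (95% exact counting interval 7.07 to 29.2) and 6.39 (4.04 to 10.5) with that flank added; in the flank alone it was 0.870 (0.313 to 2.26).

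Abi2 was the member with most Hu tags. It had 6 and 22 transcript tags in the P11 and P13 FMRP libraries, against 65 and 107 in the P11 and P13 Hu libraries, or 224 and 499 CPM for FMRP and 2512 and 2147 CPM for Hu. Both FMRP values lay under both Hu values. The log2 FMRP over Hu was -2.31 (SE 0.65, adjusted p = 0.0148, edgeR quasi-likelihood test, Benjamini-Hochberg adjusted). It was no longer called without the P11 FMRP library (log2 -1.40, adjusted p = 0.208 by edgeR), without the P11 Hu library (log2 -2.42, adjusted p = 0.0566) or without a filter on low counts (log2 -2.44, adjusted p = 0.0640), and over all alternatives the adjusted p ran from 8.26e-07 to 0.208.

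The other members had too few tags to pass the filter of the fit across genes, and their ratios carry counting error only. Fitted without the filter, none passed: the log2 FMRP over Hu was 3.07 for Abi1 (adjusted p = 0.171), 1.52 for Wasf3 (adjusted p = 0.505) and -0.25 for Wasf1 (adjusted p = 0.871; edgeR quasi-likelihood test for all). Wasf3 had 7 and 10 tags in the P11 and P13 FMRP libraries and 5 and 1 in the Hu libraries, a ratio of 3.03 (95% exact counting interval 1.14 to 9.38). Abi1 had 4 and 12 tags in the FMRP libraries and 0 and 2 in the Hu libraries, a ratio of 8.55 (2.01 to 76.6). Wasf1 had 6 and 12 tags in the FMRP libraries and 5 and 21 in the Hu libraries, a ratio of 0.740 (0.382 to 1.40), so a difference was not detectable at this depth. Wasf2 had 0 tags in each of the 4 Illumina libraries. Cyfip1 has no line in the transcript lists, and its tags were therefore counted on the genome, between the mm9 bounds of its neighbours Tubgcp5 and Nipa2 (chr7:63086818-63186956), after the data had been seen. There the FMRP libraries held 8 tags at P11 and 8 at P13, all on the plus strand, and the Hu libraries held 0 and 1 on the plus strand and 1 and 4 on the minus strand. The plus-strand ratio of FMRP over Hu was 22.6 (3.51 to 948), and over both strands it was 3.77 (1.40 to 11.8). No strand was listed for Cyfip1, so the plus-strand ratio depends on taking the strand that held all of these FMRP tags.

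**Figure D3:**
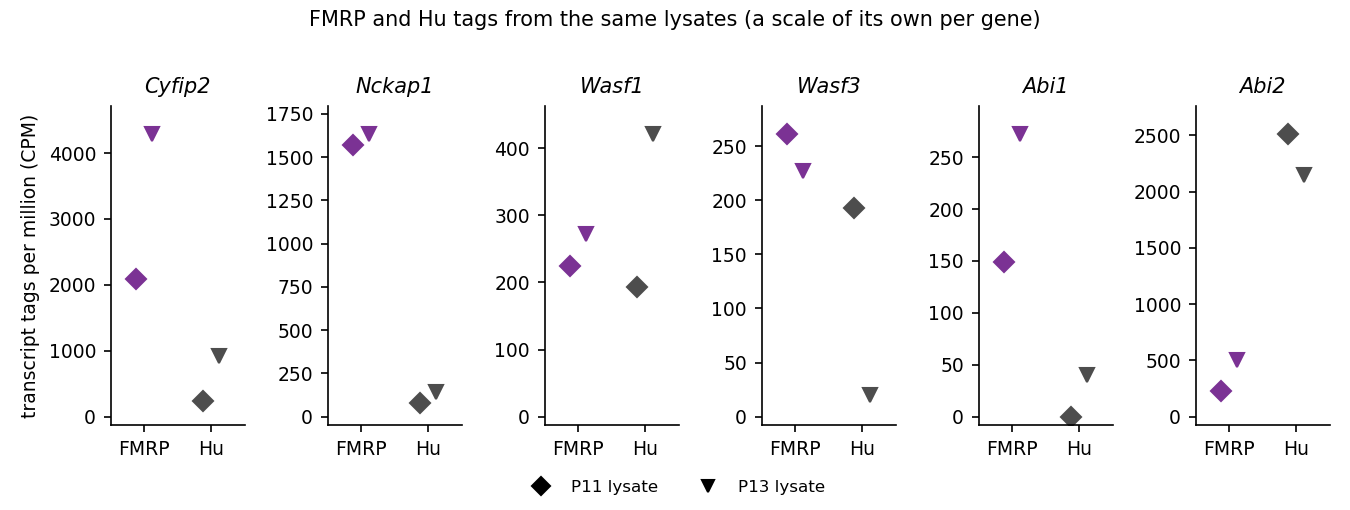
Transcript tags in CPM (y axis, a scale of its own per gene) in the FMRP (left, purple) and Hu (right, grey) libraries for the 6 members with tags there; diamonds are the P11 lysate and triangles the P13 lysate. Cyfip2 and Nckap1 were called higher in FMRP, as 33.6% of the 1015 genes tested were. Abi2 was called lower (224 and 499 for FMRP, 2512 and 2147 for Hu), as 27.3% were. With 2 libraries of each protein the points of a gene can separate by chance. Wasf1 overlaps between the proteins. Wasf3 (5 and 1 Hu tags) and Abi1 (0 and 2 Hu tags) rest on few tags. Neither passed when fitted without the filter (adjusted p = 0.505 and 0.171, edgeR quasi-likelihood test).

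FMRP tags lay nearer the 5′ end of Cyfip2 mRNA than Hu tags did. Positions are those of the tag middle, counted from 1 at the 5′ end of the listed RefSeq transcript, a measure chosen after the data had been seen. Positions over all transcripts are not given here, so whether the difference is particular to these genes was not tested. On Cyfip2 the median position was nt 2578, 2377 and 2371 in the monoclonal P14, P15 and P25 libraries, 1922 and 2374 in the polyclonal P14 and P25 libraries on 454 and 2591 and 2227 in the P11 and P13 FMRP libraries, against 5021 and 5351 in the P11 and P13 Hu libraries. Every FMRP library thus had its median before the midpoint of the transcript (nt 3392) and both Hu libraries had it after. Of the FMRP tags, 11.5% to 21.6% lay beyond the midpoint in each library, against 100% and 97.8% in the Hu libraries (exact two-sided permutation test of 7 against 2 libraries, p = 0.0556, the smallest this design allows).

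On Cyfip2 the densest window held a larger share of the Hu tags than of the FMRP tags. The densest 100 nt of the FMRP tags (nt 2572 to 2671) held 28 of 405 tags, or 6.91%, and drew on 7 of 7 libraries. The densest 100 nt of the Hu tags (nt 6192 to 6291) held 13 of 52, or 25%, from both libraries. On the genome the densest windows were chr11:46055854-46055953 for FMRP, with 28 of 359 tags in the gene, and chr11:46007414-46007513 for Hu, with 12 of 48, close to the lower bound of this minus-strand gene and so to its 3′ end. The proteins differ in their number of tags, and this difference was not tested.

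On Wasf1, too, FMRP medians lay upstream of Hu medians, with fewer tags. On Wasf1 (midpoint nt 1254) the median was nt 409 and 904 in the P11 and P13 FMRP libraries, against 2130 and 2135 in the Hu libraries. Beyond the midpoint lay 22.2% of 18 Illumina FMRP tags (Wilson interval 9.0% to 45.2%) and 96.2% of 26 Hu tags (81.1% to 99.3%). The densest 100 nt of the Hu tags on Wasf1 (nt 2066 to 2165; on the genome chr10:40657931-40658030) held 14 of the 26. On Abi2 (midpoint nt 2895) the stretches overlapped more. The median was nt 1095 and 2146 in the P11 and P13 FMRP libraries, against 2941 and 3218 in the Hu libraries, and 39.3% of 28 FMRP tags (23.6% to 57.6%) lay beyond the midpoint, against 82.6% of 172 Hu tags (76.2% to 87.5%). Of those 172 tags, 50 fell into nt 2922 to 3021 (densest genomic window chr1:60535331-60535430). The 6 Hu tags on Wasf3 all lay between nt 2077 and 2088. Nckap1, whose list holds coding sequence only, had FMRP tags from nt 76 to 3320, and 9 Hu tags are too few to place. With 2 libraries of each protein an exact permutation test could not pass 0.05, so none was run for these genes.

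**Figure D4:**
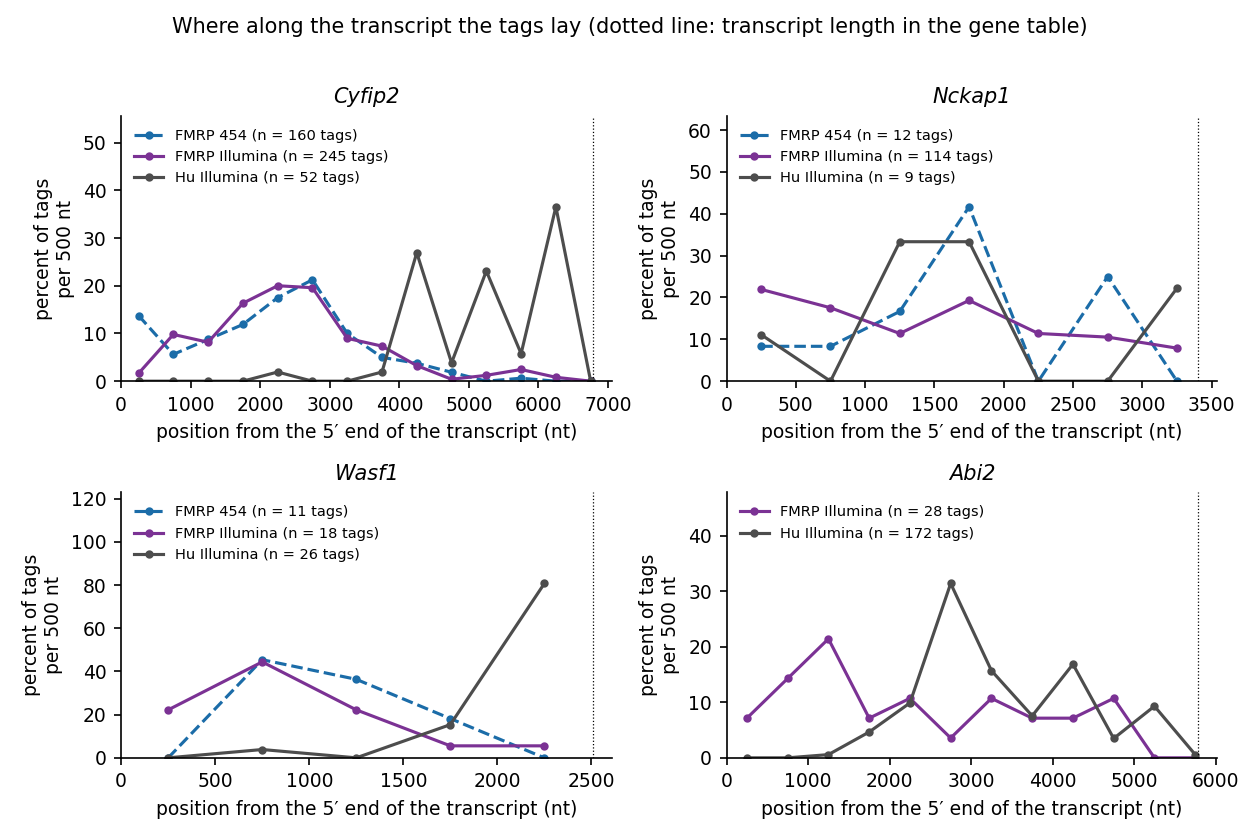
Percent of tags in each 500 nt of the transcript (y axis) against the position from the 5′ end (x axis, nt) for Cyfip2, Nckap1, Wasf1 and Abi2; lines are pooled 454 FMRP libraries (blue, dashed), Illumina FMRP libraries (purple) and Hu libraries (grey), and groups under 5 tags are not drawn. On Cyfip2 both FMRP lines peak between 2000 and 3000 nt and the Hu line peaks beyond 4000 nt; on Wasf1 80.8% of the Hu tags fall between 2000 and 2500 nt.

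The authors' coding counts give the same view for FMRP without positions. Coding sequence took 100%, 96.6% and 100% of the Cyfip2 tags in the monoclonal P14, P15 and P25 libraries, 91.3% and 81.1% in the polyclonal P14 and P25 libraries on 454, and 90.9% and 88.7% in the P11 and P13 libraries. The mean was 92.6% ± 6.80 (SD, n = 7), while coding sequence is 55.4% of the transcript length (3762 of 6785 nt). The share lay above the share of length in 7 of 7 libraries, by 37.2 percentage points (exact two-sided sign-flip permutation test, p = 0.0156, the smallest that 7 libraries allow). Cyfip2 was the only member with at least 5 tags in each library, and the others were pooled over libraries, with Wilson intervals at 95% that cover counting error only.

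Of the Cyfip1 tags, 19 of 19 were coding (interval 83.2% to 100%), where coding sequence is 48.9% of the length. Of the Abi1 tags, 18 of 19 were coding (75.4% to 99.1%, against 41.3% of the length), and of the Wasf1 tags 27 of 30 (74.4% to 96.5%, against 67.0%). For Wasf3 it was 17 of 22 (56.6% to 89.9%, against 56.1%). For Abi2, 10 of the 30 FMRP tags were coding, or 33.3% (19.2% to 51.2%), and the share of length, 26.7%, lies inside that interval. This low share came from the P13 library, where 5 of 23 Abi2 tags were coding. In the P11 library it was 3 of 5, and in the monoclonal P14 and P15 libraries 1 of 1 each. Whether Abi2 differs from the other members beyond that library cannot be read from so few tags. Over all table lines whose coding length is below the transcript length, 77.0% of FMRP tags were coding, where the length alone would give 54.8%. For Nckap1 the deposited coding and transcript lengths are equal, so its share says nothing.

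Between antibodies, the monoclonal libraries had Cyfip2 levels of 690, 578 and 899 per kb and the polyclonal 454 libraries 487 and 929, so the groups overlapped. Cyfip2 was the only member tested, and its log2 monoclonal over polyclonal was -0.05 (SE 0.34, adjusted p = 0.991, edgeR quasi-likelihood test, Benjamini-Hochberg adjusted); the sign of so small a value changed between alternatives. No gene of 96 was called (0%), with 3 at an unadjusted p under 0.05 and 0 by DESeq2.

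Between ages, Cyfip2 had 899 and 929 per kb in the P25 libraries (monoclonal and polyclonal), against 690, 578 and 487 in the monoclonal P14, monoclonal P15 and polyclonal P14 libraries. Of the 96 genes tested, 0% were called. The log2 P25 over P14 and P15 was 0.78 (SE 0.30) with an unadjusted p of 0.00944 and an adjusted p of 0.335 (edgeR quasi-likelihood test), so it did not pass; 5 of the 96 genes had an unadjusted p under 0.05, and DESeq2 called 0. The direction held in every alternative run, from 0.54 to 1.08. The P11 and P13 libraries, at 254 and 508 per kb, differ from these in protocol and platform as well as in age, which cannot be told apart.

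Between protocols, among the polyclonal libraries, Nckap1 was higher with Protocol 2 on Illumina. It had 403 and 425 per kb in the Protocol 2 libraries (P11 and P13), against 127 and 50.0 in the Protocol 1 libraries (P14 and P25). The log2 Protocol 2 over Protocol 1 was 2.47 (SE 0.70, adjusted p = 0.0459, edgeR quasi-likelihood test, Benjamini-Hochberg adjusted); 8.38% of the 334 genes tested were called, 14 higher and 14 lower. The call rests on 3 and 1 tags on the Nckap1 RefSeq line in the Protocol 1 libraries. It was lost with DESeq2, which called 0 genes (log2 2.49, adjusted p = 0.391), and without the P14 454 library (log2 3.37, adjusted p = 0.204 by edgeR), the P25 454 library (2.14, 0.246) or the P11 Illumina library (2.72, 0.150), while without the P13 Illumina library Nckap1 was not tested. Cyfip2 was at -0.68 (SE 0.47, adjusted p = 0.386 by edgeR) and did not pass. Protocol, platform and age differ together in this comparison and cannot be told apart.

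The rest of the pathway was looked up in the FMRP and Hu comparison by lists. The small subunit gene Brk1, the paralogs Nckap1l and Abi3, and Nckap5, which is listed with them by its name and is not a subunit, held 5 FMRP and 13 Hu Illumina tags in all, and 0 of 4 were tested. Of 10 Arp2/3 genes, which encode the actin nucleator that WAVE activates, 2 were tested and both were lower in FMRP, where 27.3% of all genes tested were lower, and 2 genes say little of the list. Actr2 had 2 and 15 tags in the FMRP libraries and 42 and 88 in the Hu libraries (log2 -2.59, SE 0.76, adjusted p = 0.0172), and Actr3 had 2 and 4 in the FMRP libraries and 16 and 28 in the Hu libraries (log2 -2.46, SE 0.69, adjusted p = 0.0144; both from the edgeR quasi-likelihood test). Of 11 genes of the other WASP family members and partners, 0 were tested, with 85 FMRP and 77 Hu tags in all.

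Of 20 genes of Rac signalling and WAVE regulation, 11 were tested, 4 were higher in FMRP and 1 was lower, where 33.6% and 27.3% of all genes tested were; the share higher is near that background. The median log2 was 0.38 in the list and -0.16 over all genes tested. Arhgap32, which encodes a GTPase-activating protein of synapses, had 31 and 123 tags in the FMRP libraries and 0 and 4 in the Hu libraries (log2 5.54, SE 1.00, adjusted p = 0.00227). The Rac exchange factor genes Dock4 (log2 3.99, SE 0.94, adjusted p = 0.00668), Kalrn (3.58, SE 0.97, 0.0123) and Trio (3.41, SE 0.80, 0.00664) were higher too. Rac1, which encodes the GTPase that opens the complex, was lower, with 2 and 4 tags in the FMRP libraries and 8 and 21 in the Hu libraries (log2 -1.83, SE 0.60, adjusted p = 0.0268). Baiap2, Srgap3, Dock3, Pak1, Pcdh10 and Pcdh19 had a log2 between -0.64 and 0.73 and did not pass. All of these adjusted p-values are from the edgeR quasi-likelihood test.

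Of 10 genes for cap binding and the FMRP family, 3 were tested. The initiation scaffold gene Eif4g1 was higher in FMRP, with 34 and 38 tags in the FMRP libraries and 4 and 1 in the Hu libraries (log2 4.05, SE 0.90, adjusted p = 0.00523, edgeR quasi-likelihood test). Fmr1, which encodes FMRP itself, was lower, with 1 and 4 tags in the FMRP libraries and 13 and 22 in the Hu libraries (log2 -2.39, SE 0.68, adjusted p = 0.0147 by edgeR). Eif4g2 was at 1.65 (SE 0.71, adjusted p = 0.0661 by edgeR) and did not pass. Eif4e, to which CYFIP1 binds, had no tag listed.

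The genes whose tags across the 9 libraries were most like those of Cyfip2 were Epb41l1, a membrane skeleton gene, with a Pearson r of 0.962 over log2(CPM + 100), the transcription factor gene Camta2 (0.958), Arhgap32 (0.958), the actin-oxidizing monooxygenase gene Mical2 (0.955) and the phosphodiesterase gene Pde2a (0.948). They came from 340 genes with a mean of at least 500 CPM, and Nckap1 was at 0.329. This is a description of 9 libraries that share platforms and proteins. Epb41l1 had 23 and 60 tags in the P11 and P13 FMRP libraries and 8 and 22 in the Hu libraries, and Camta2 had 23 and 41 tags in the P11 and P13 FMRP libraries and 0 and 3 in the Hu libraries.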

How the data were processed

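HITS-CLIP tags of 7 FMRP and 2 Hu libraries were analysed. The submitters' processing notes name Novoalign and mm9, with no version. The authors' deposited gene table gives counts of FMRP tags for each gene, on the whole transcript and on coding sequence. It also gives the authors' exon array intensity, a log2 expression in neurons, a chi-square score with its p-value and FDR (which exceeds 1 in many lines and is treated as a score), and ratios from other studies, which were not used. The deposited tag lists hold 1 line per unique tag on the genome or on RefSeq transcripts; a line was counted as 1 tag, and the values beside the tags (counts of merged reads on 454, a score of no stated meaning on Illumina) were not used. How tags were given to genes is not stated in the sources used here.

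FMRP was compared with Hu on transcript tags of the 4 Illumina libraries, since the gene table has no Hu column. Antibody was fitted on the 5 libraries on 454, age on the same libraries beside an antibody term, and protocol on the 4 polyclonal ones, with the table's counts summed per gene. The fits used edgeR 4.0.16 in R 4.3.3 (TMM, filterByExpr, quasi-likelihood in its earlier form, adjusted over all genes tested at 0.05), were tested on simulated data, and had DESeq2 1.42.0 as an alternative. Levels per kb, coding shares and positions used Python 3.11.15 (scipy 1.17.1, numpy 2.4.6, pandas 2.3.3, matplotlib 3.10.9). All tests are two-sided. Tag totals set the precision: Wilson and exact counting intervals at 95% and the limit of 3 counts account for counting error alone.

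Replicates are pools of mice of different ages, so a p-value here measures only how far these libraries spread. The P11 and P13 lysates were each divided between FMRP and Hu, per the series text; deviations of same-lysate libraries from their group means correlated at 0.16 over 1015 genes, and the lysate was tried as a block. Members, lists, tests and named genes (all members, the 3 largest called folds of each list in each direction, and the 5 genes most like Cyfip2) were chosen with earlier results of these data known. Camta2 and Epb41l1 were singled out for their tag counts, and Trio, Baiap2, Srgap3, Dock3, Pak1, Pcdh10, Pcdh19 and Eif4g2 were named after their values were seen.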

Additional observations from a re-analysis of the deposited data

Results flagged for a closer look

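Of the 7 members with FMRP tags, Abi2 had a library flagged as far from the others. The P13 Illumina library stood at 91.2 Abi2 tags per kb, and the next highest of the 7 FMRP libraries at 38.5, so that the gap was 0.578 of the whole range, against a critical value of 0.568 for 7 libraries. Chance flags about 1 in 20 groups, and 7 genes were tested in this way. The library holds 23 of the 30 Abi2 tags in the table and is also the most deeply sequenced of the FMRP libraries; the part of depth in this value was not tested.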

How the results depend on the processing

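Over the alternatives run, 175 of 239 values were unchanged. For an effect this means the same direction and side of the threshold, and for a count of members or pairs the same count. Counts that stayed at 0, as for neighbours, antibodies and ages, are among them and say little of stability. Members higher in FMRP than in Hu numbered 2, and 1 when the 454 FMRP libraries joined beside a platform term; leaving out single libraries gave 1 to 2. Members lower in FMRP numbered 1, and 0 without a filter on low counts; leaving out single libraries gave 0 to 1. With the lysate as a replicate block the log2 was 2.89 for Cyfip2, 4.09 for Nckap1 and -2.40 for Abi2, and no call changed. Over all genes, the calls of 341 higher and 277 lower became 214 and 109 without the P11 Hu library, 367 and 84 without the P13 Hu library, 429 and 77 without the P11 FMRP library, 295 and 204 without the P13 FMRP library, and 78 and 68 of 202 genes with all 7 FMRP libraries. The share of calls that were higher was 84.8% without the P11 FMRP library and 81.4% without the P13 Hu library. Members that differed between protocols numbered 1, 0 with DESeq2 and 0 whenever a library was left out. Cyfip2 minus Cyfip1 was 48.9 per kb per 1000 array units and no longer passed. On 454 only it was 702 per kb, with Cyfip2 higher in 5 of 5 libraries, a number too small for the test to pass. Leaving out single libraries gave 551 to 666. With genomic tags, counted for Cyfip1 on the plus strand only, the difference was 377. The transcript lists, which have no Cyfip1 line, gave no value. The coding share of Cyfip2 minus its share of length was 38.3 points on 454 only, where 5 libraries cannot pass, and 35.97 to 39.1 without single libraries.

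No neighbouring pair of the order passed after adjustment under any alternative that covers all 7 pairs, but this says nothing of stability: on 454 only no p can go below 0.0625, and with 7 libraries a single pair cannot go below 0.109. Divided by array intensity, Cyfip2 minus Nckap1 was -92.1, Nckap1 minus Wasf1 -1571, Wasf3 minus Abi1 -11.9 and Abi1 minus Abi2 -41.3. Divided by neuron expression, Nckap1 minus Wasf1 was -16.3, Wasf1 minus Wasf3 -663 and Abi2 minus Cyfip1 -1.13. Nckap1 minus Wasf1 was -4.39 with coding counts and -57.7 on 454 only, where Abi2 minus Cyfip1 was -2.28. Without single libraries, Abi1 minus Abi2 ran from -1.89 to 13.8 and Abi2 minus Cyfip1 from -2.47 to 12.5. The log2 monoclonal over polyclonal of Cyfip2, -0.05, was 0.084 without a filter, 0.15 with coding counts and 0.052 with age as a term, and ran from -0.47 to 0.54 without single libraries; its log2 Protocol 2 over Protocol 1 was 0.054 without a filter. The cause of these changes was not tested. At 3 counts per library, members under 682 CPM on 454 cannot be told from 0 in the smallest library.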
